A study of Mus musculus with 3 samples.

Results

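Contractile and actin-binding genes were followed in mouse embryonic stem (ES) cells that carry a conditional knockout of Pou5f1, which encodes the pluripotency factor Oct3/4. The set holds 10 named genes: Acta2, Tagln, Tpm1, Tpm2, Tpm4, Cald1, Cnn1, Cnn2, Myl9 and Actn1. Its members are all probe sets that the array annotation assigns to 1 of these genes and to no other gene, which gave 24 of the 45037 probe sets measured and 10 of 18193 genes. A probe set is a group of short probes that report on 1 transcript together, and its signal is a linear intensity. Total RNA was profiled on Affymetrix arrays from cells labelled as conditional Oct3/4 knockout at day 0, day 1 and day 2, with 1 array for each day. The study asked how gene expression changes once Oct3/4 is absent, and a conditional knockout was used. How the knockout was induced, and from how many clones or cultures the RNA came, is not stated in the labels. All 3 arrays are labelled as the conditional knockout, and there is no array of unmodified cells at day 1 or day 2, so loss of Oct3/4, time in culture and any inducing treatment cannot be told apart.

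Actin filaments and myosin II form the contractile machinery of muscle and, in a simpler form, the stress fibres and cortex of other cells. Tropomyosins lie along the actin filament, caldesmon and calponins bind to it and restrain myosin, the regulatory light chain switches myosin on when phosphorylated, and alpha-actinin crosslinks filaments. Many of these genes are targets of serum response factor (SRF), which acts with myocardin-related coactivators that sense the pool of free actin. Several are known as smooth muscle markers, although fibroblasts and spreading epithelial cells use them as well.

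Because each day had 1 array there was no replicate error and no test. Differences were taken on the log2(signal + 55.9) scale, where the constant is the 40th percentile of all signals, and they understate the change of dim probe sets. A difference of 1 on this scale is 2-fold. The only error the files allow is the disagreement among a gene's own probe sets, which gave a pooled SD of 0.30 for each step between neighbouring days and 0.34 over the whole course. It covers probe error and leaves out variation between cultures and hybridisations. Probe sets averaging less than the constant over the arrays were set aside. Of the 24 probe sets 19 were kept, and each of the 19 was above the constant on all 3 arrays, so none was kept through a high day 2 alone. The other 5 were below it on every array.

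The arrays were first checked against their labels. The signal of Pou5f1 itself was 2400 at day 0 and then 40.8 (day 1) and 15.5 (day 2). All 10 ES cell markers examined, Sox2 and Nanog among them, were at least 2-fold lower at day 2 than at day 0, with a summed signal of 121490 on day 0, 73306 on day 1 and 25153 on day 2. Of 11 kept trophectoderm markers 10 were at least 2-fold higher, with Eomes the exception, and the summed signal of all 12 was 11479 on day 0, 17659 on day 1 and 63451 on day 2. Most of the day 2 sum was Krt8 (18358) and Krt18 (24610). Of 7 kept primitive endoderm markers 3 were at least 2-fold higher, Col4a1 (1.89), Gata6 (1.46) and Dab2 (1.33, and 0.36 for its lowest probe set), and Lama1 (−1.66) was lower by more than 2-fold. The summed signal of all 9 was 2373 on day 0, 4508 on day 1 and 5649 on day 2, with the larger step by day 1. Col4a1 alone held 1061, 2972 and 4072 of these sums. Within 2-fold at day 2 against day 0 were Gata4 (−0.43), Sox17 (−0.27) and Pdgfra (0.23). Their signals were near the constant, at 76.0, 86.2 and 77.7 on day 0 and 41.9, 61.9 and 101 on day 2. The differences of Sox17 and Pdgfra were under the pooled SD of 0.34. Sox7 and Foxa2 were below the constant on average. Of the differences of Col4a1, Gata6 and Dab2, 1.44, 1.46 and 1.09 had appeared by day 1. Among the 11 kept trophectoderm markers 5 were at least 2-fold higher at day 1 against day 0. In the step to day 2, 6 were higher and 1 lower by as much. The part of these markers in the values of the set was not tested. Of 7 defining smooth muscle markers 4 were below the constant on average, the smooth muscle myosin gene Myh11 and the coactivator gene Myocd among them, and 0 of the 3 kept, Smtn, Des and Synpo2, passed 2-fold. Their summed signal was 885 on day 0, 1070 on day 1 and 992 on day 2. Fibroblast and feeder markers were dim, with 10 of 19 below the constant on average, including Col1a1, Col3a1 and Dcn. At day 2 against day 0, 0 were at least 2-fold higher, and Thy1 (−1.65) and Mmp2 (−1.25, and −0.10 for its weakest probe set) were lower by more than 2-fold. Their summed signal was 1859 on day 0, 1605 on day 1 and 1616 on day 2.

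Most of the set was higher at day 2, and most of the difference came after day 1, except in Cald1 and, on its brightest probe set, Actn1. Each gene was read from the brightest of its kept probe sets, which gave 9 genes, all but Cnn1. At day 2 against day 0, 7 of the 9 were at least 2-fold higher (Cald1, Tpm4, Tpm1, Tagln, Acta2, Cnn2 and Myl9), 0 were at least 2-fold lower, and Tpm2 and Actn1 were within 2-fold. Over all 12717 genes kept, 5.25% were at least 2-fold higher, and 5.65% were lower by as much. The median difference of the 9 was 1.43, against 0.05 for all genes. At day 1 against day 0 only Cald1 was at least 2-fold higher, with a median of 0.24 for the 9 genes and 0.04 for all genes, where 2.40% of all genes were at least 2-fold higher and 2.59% were lower by as much. All 9 were highest at day 2, as were 39.3% of all genes. At day 2 against day 1, 6 of the 9 were at least 2-fold higher, with a median of 1.04, against 0.00 for all genes with 2.09% of them at least 2-fold higher and 2.65% lower by as much. This count was 4 with a constant 2 times as large, where Acta2 was at 0.99 and Myl9 at 0.93, and 5 with the mean over probe sets, where Cald1 was at 0.80. Without suffixed probe sets, which leaves Acta2 without a value, it was 4, with Cald1 at 0.75. Scaling by the median of ribosomal protein genes split all genes into 520 higher and 867 lower at day 2 against day 0, in place of 668 and 718. Under equal array medians the split at day 1 against day 0 was 193 and 446, in place of 305 and 330. In these bulk samples, more cells that express a gene and more RNA per cell cannot be told apart.

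**Figure D1:**
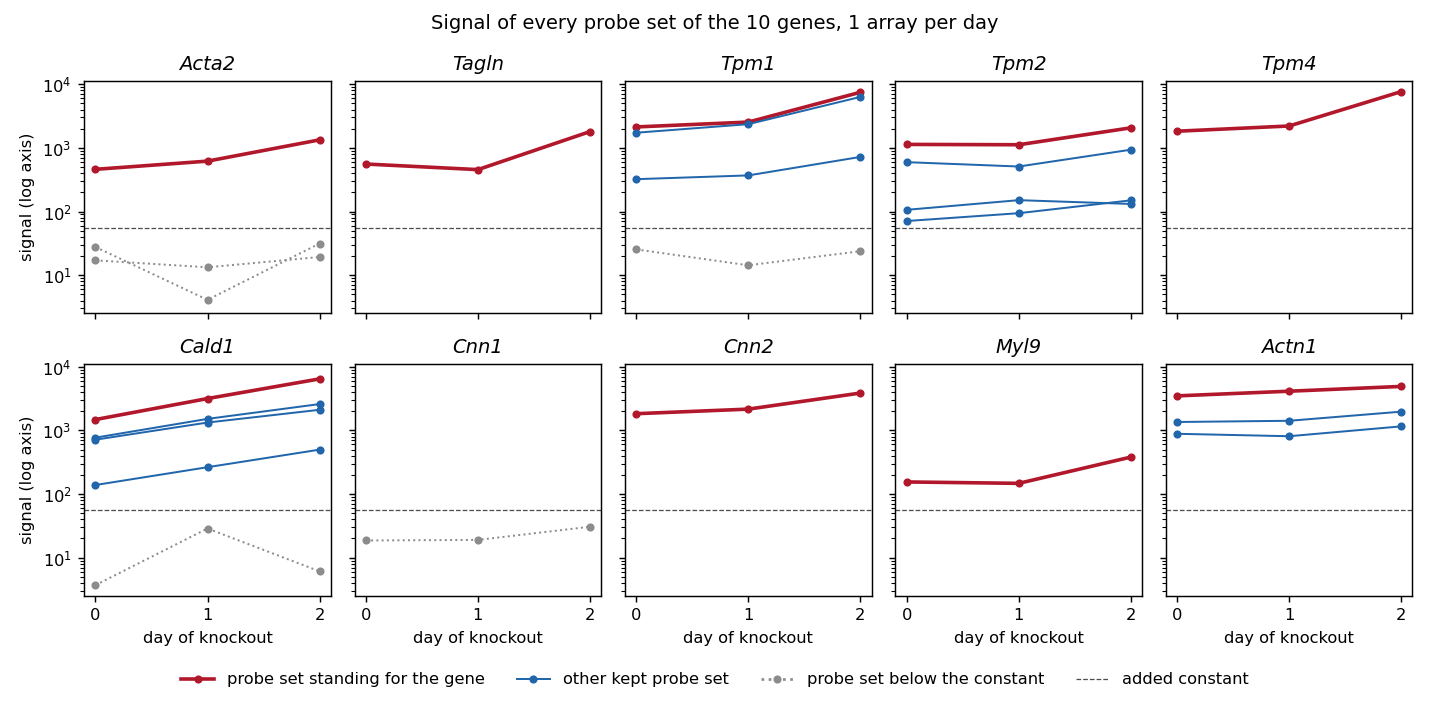
Signal of every probe set of the 10 genes (vertical axis, linear intensity on a log axis) against the day of the knockout (horizontal axis), 1 array per day. Thick red lines are the probe set that stands for the gene, blue lines the other kept probe sets, dotted grey lines those below the constant of 55.9 (dashed), and the red line of each of the 9 genes that have one is highest at day 2.

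Acta2 encodes smooth muscle alpha-actin, the actin that builds contractile filaments in smooth muscle and in activated fibroblasts. Its signal was 459.9 on day 0, 619 on day 1 and 1336 on day 2. Day 2 was 2.70-fold above day 0 on the scale with the constant, a difference of 1.43, of which 0.39 had appeared by day 1. The probe set behind these values ends in _s_at, a suffix for probes that can match more than 1 transcript. The 2 other Acta2 probe sets stayed between 4.10 and 31.4 on every array, below the constant. Acta2 therefore rests on 1 probe set. Acta1, the skeletal muscle alpha-actin and a close relative, had signals of 376 on day 0, 191 on day 1 and 903 on day 2, so that the 2 actin genes differed at day 1, where Acta1 was lower by −0.81 and Acta2 higher by 0.39.

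The 3 tropomyosin genes were not alike. Tpm1 had signals of 2133 on day 0, 2541 on day 1 and 7473 on day 2. This was 3.44-fold higher at day 2 than at day 0, a difference of 1.78, and its other kept probe sets gave 1.84 and 1.04. All 3 kept probe sets of Tpm1 were thus at least 2-fold higher, while day 1 differed from day 0 by 0.17 to 0.43. Tpm4, a tropomyosin of non-muscle cells, had signals of 1826 on day 0, 2206 on day 1 and 7657 on day 2. Its day 2 level was 4.10-fold that of day 0, a difference of 2.04, and 1.77 of it fell between day 1 and day 2. Tpm2 had signals of 1133 on day 0, 1120 on day 1 and 2063 on day 2. It was 1.78-fold higher at day 2 than at day 0, a difference of 0.83, and the 4 kept probe sets ran from 0.21 to 0.83 with 0 of them reaching 2-fold.

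The probe sets of Tpm2 did not move together. The 2 brightest were lower or level at day 1 (−0.02 and −0.21) and higher by 0.85 and 0.81 in the step to day 2. A dimmer one, with signals of 106 on day 0, 151 on day 1 and 131 on day 2, was the only kept probe set of the 19 that was not highest at day 2. The last had signals of 70.9, 94.1 and 149.8 at day 0, day 1 and day 2, and ends in _x_at, a suffix for probes that may cross-hybridise.

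Cald1 encodes caldesmon, which binds actin and tropomyosin and holds back myosin. It had the largest difference of the set at day 1 against day 0. Its signal was 1477 on day 0, 3158 on day 1 and 6433 on day 2. Day 1 was 2.10-fold above day 0 and day 2 was 4.23-fold above day 0, with nearly equal steps of 1.07 and 1.01. The 3 other kept probe sets gave 0.72, 0.85 and 0.93 at day 1 and 1.51, 1.49 and 1.68 at day 2, so all 4 were at least 2-fold higher at day 2 and 1 of the 4 at day 1. The brightest probe set ends in _s_at, and the mean over the 4 was 0.89 at day 1 and 1.69 at day 2. Its day 1 difference was 0.92 with equal array medians and 0.93 with equal medians of ribosomal protein genes, so at day 1 it passed 2-fold under some settings only.

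Tagln encodes transgelin (SM22), an actin-binding protein of the calponin family and an early marker of smooth muscle. Its signal was 557 on day 0, 455 on day 1 and 1801 on day 2. The day 1 level was lower than day 0 by −0.26, less than the pooled SD of 0.30, and the step from day 1 to day 2 was 1.86, the largest in the set. Day 2 was 3.03-fold above day 0, a difference of 1.60 from a single probe set.

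Of the 2 calponin genes only Cnn2 was above the constant. Cnn1, the calponin of differentiated smooth muscle, had signals of 18.6 on day 0, 19.0 on day 1 and 30.6 on day 2, all below the constant, so that it was set aside and no change was read. Cnn2, which is expressed more widely, had signals of 1826 on day 0, 2155 on day 1 and 3854 on day 2. It was 2.08-fold above day 0 at day 2, a difference of 1.05, with 0.23 by day 1 and 0.82 after it. With equal medians of ribosomal protein genes the difference was 0.92, and with equal array medians 0.99, so Cnn2 passed 2-fold under some scalings only.

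Myl9 encodes a regulatory light chain of myosin II in smooth muscle and non-muscle cells. Its signal was 154.6 on day 0, 147 on day 1 and 380.2 on day 2. Day 1 and day 0 differed by −0.05, and day 2 was 2.07-fold above day 0, a difference of 1.05. At signals this near the constant the value depended on it, and was 0.88 with a constant 2 times as large, and 0.94 with equal medians of ribosomal protein genes.

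Actn1 encodes alpha-actinin 1, a crosslinker of actin filaments at stress fibres and adhesions. It had signals of 3479 on day 0, 4119 on day 1 and 4898 on day 2, and the smallest difference of the 9 genes. Day 2 was 1.40-fold above day 0, a difference of 0.49, and its 3 probe sets gave 0.37 to 0.52. All 3 were above the pooled SD of 0.34 at day 2, and none reached 2-fold. The brightest probe set made steps of 0.24 and 0.25, and the other 2 made 0.06 then 0.46 and −0.12 then 0.49.

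**Figure D2:**
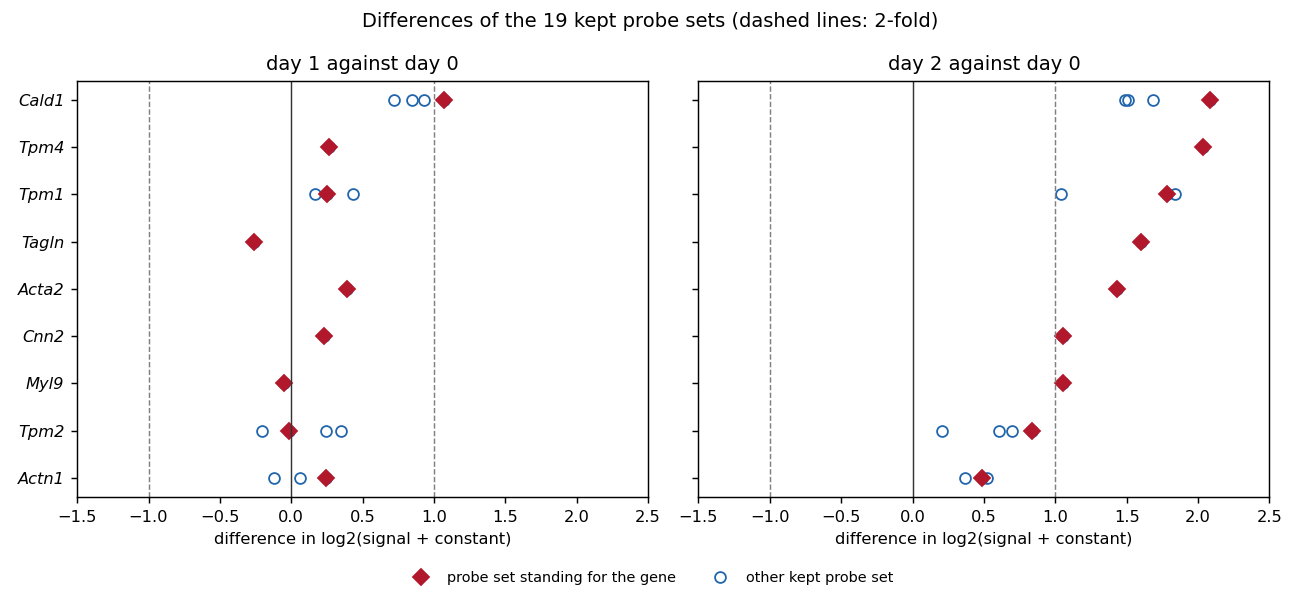
Differences in log2(signal + constant) of the 19 kept probe sets (horizontal axis) for day 1 against day 0 (left) and day 2 against day 0 (right), with genes in the order of their day 2 difference. Red diamonds stand for the gene and blue circles are its other kept probe sets. At day 2, 12 lie at or past the dashed line of 2-fold higher, against 1 at day 1. Over all kept probe sets 4.48% did so at day 2 and 2.09% at day 1.

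Counted over probe sets, 12 of the 19 kept were at least 2-fold higher at day 2 than at day 0, where 4.48% of all 26925 kept probe sets were. At day 1 the count was 1 of 19, a probe set of Cald1, and 2.09% over all. Gaps between neighbours in the order of the 9 genes were under the pooled SD or little above it. From Cald1 (2.08) through Tpm4, Tpm1 and Tagln to Acta2 (1.43), each gap between neighbours was smaller than the pooled SD of 0.34. The gap between Acta2 and Cnn2 was 0.38 and that between Tpm2 and Actn1 was 0.35, and these 2 of the 8 gaps exceeded it. A gap carries the probe error of both genes, so passing the pooled SD this narrowly does not separate them.

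The later step was larger than the earlier one in 8 of the 9 genes, Cald1 being the exception, and in 47.3% of all 12717 genes kept. In Actn1 the steps of 0.24 and 0.25 on the brightest probe set differed by less than probe error. In 7 of the 9 the later step exceeded the earlier one by more than 0.30, the pooled SD of a single step. The error of a difference between 2 steps was not estimated. The day 1 difference was within the pooled SD of 0.30 in 7 genes, the others being Cald1 and Acta2. Shares of all genes for the counts that use 0.30 were not computed. Among all 668 genes at least 2-fold higher at day 2 than at day 0, 52.7% had the larger step after day 1, and 24.6% were already at least 2-fold higher at day 1. Of the 7 such genes in the set, 6 had the larger step after day 1 and 1 was at least 2-fold higher at day 1. Both steps share the day 1 array, so an error of that array would enter them with opposite signs.

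**Figure D3:**
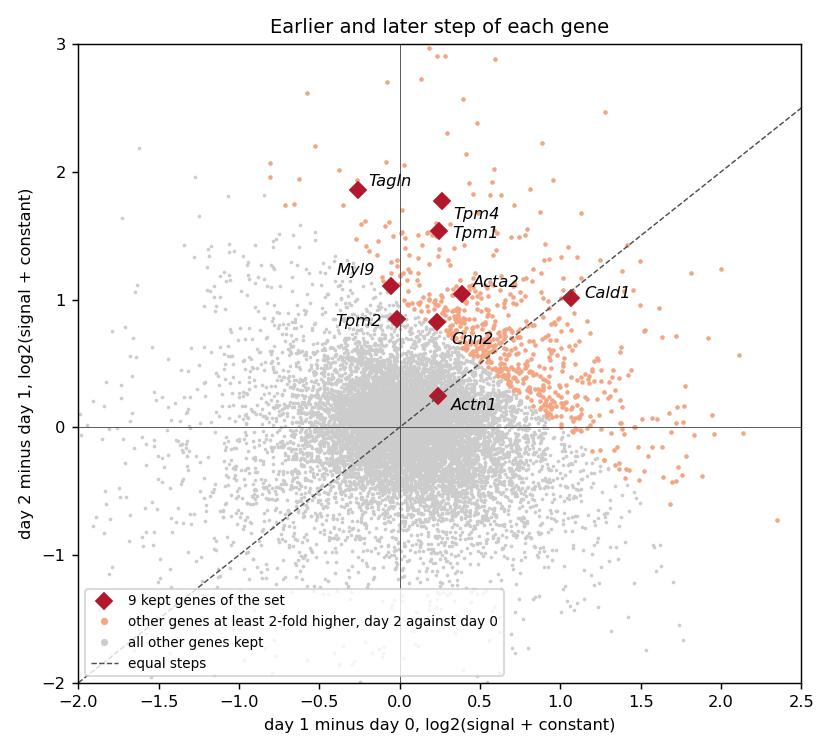
Step from day 0 to day 1 (horizontal axis) against step from day 1 to day 2 (vertical axis) in log2(signal + constant), with 1 point per gene: red diamonds are the 9 kept genes, orange points other genes at least 2-fold higher at day 2 than at day 0, grey points all other genes, and the dashed line equal steps. The axes leave out 92 of the 12717 genes, and Tagln, Tpm4 and Tpm1 lie highest above the dashed line while Cald1 and Actn1 lie on it.

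SRF binds the CArG box, which reads CC, then 6 bases that are each A or T, then GG, and reads alike in form on both strands, so that a search of 1 strand covers both. RefSeq promoter windows of mouse build GRCm38.p6, from 250 bases before to 50 after the start site, were found for 9 of the 10 genes, all but Tagln, and these genes have 10 windows. In 8 of the 10 windows, that of Acta2 among them, the start site used lies inside the RefSeq gene, downstream of its first base. A CArG box of this exact form was found in the windows of Myl9 and Cnn2 and in 0 of the other 8 windows, while 1.63% of all 32851 windows hold one. With 1 C or G allowed among the 6 middle bases, 3 of the 10 windows held a match, against 9.98% of all windows. The third was that of Acta2, with 2 such matches. The windows of Myl9 and Cnn2 are shown because they carry the exact match, with that CArG box in capitals. The sequences are on the plus strand and stop where the RefSeq gene begins. For Cnn2 this is the start site, whereas for Myl9 the start site from which the box is counted lies 56 bases further on.
Myl9, chr2:156775214-156775407, with the box 161 to 152 bases before the start site: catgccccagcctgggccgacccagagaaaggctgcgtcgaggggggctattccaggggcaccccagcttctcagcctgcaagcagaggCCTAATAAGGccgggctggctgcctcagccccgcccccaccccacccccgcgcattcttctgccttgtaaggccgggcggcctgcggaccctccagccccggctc
Cnn2, chr10:79988350-79988599, with the box 56 to 47 bases before the start site: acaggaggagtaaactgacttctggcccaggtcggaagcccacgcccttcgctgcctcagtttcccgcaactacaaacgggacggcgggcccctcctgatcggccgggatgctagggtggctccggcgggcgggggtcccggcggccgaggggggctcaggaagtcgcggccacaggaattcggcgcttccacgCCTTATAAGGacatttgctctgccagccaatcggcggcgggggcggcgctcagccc
Both genes differed by 1.05 at day 2 against day 0, and a link between a box and the size of a difference was not tested. A match is a description of the letters in these windows and shows no binding, and no match says only that the box is not in the window examined.

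Genes of the same machinery outside the set were read from 6 lists that together name 73 genes, of which 64 were kept, 7 were below the constant and 2 had no probe set of their own. At day 2 against day 0, 9 of the 64 (14.1%) were at least 2-fold higher, 3 were at least 2-fold lower and 52 were within 2-fold, with a median of 0.40. Of all genes 5.25% were at least 2-fold higher.

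Close relatives of the set mostly stayed within 2-fold. Of 10 kept paralogs, Tagln2 (1.36, signals of 2304, 3562 and 6006 at day 0, day 1 and day 2) was at least 2-fold higher and Tagln3 (−1.55, signals of 131, 92.6 and 7.80), a neuronal transgelin, was lower by more than 2-fold. The non-muscle forms Actn4 (0.31), Myl12a (0.57), Myl12b (0.14), Cnn3 (0.50) and Tpm3 (0.05) were within 2-fold, as was Actn3 (−0.68), an alpha-actinin of skeletal muscle, and the median was 0.25. The 5 kept probe sets of Tpm3 ran from −0.09 to 1.12, so not all of them were within 2-fold. The day 2 signal of Tagln3 was below the constant. Of 4 kept actin genes Acta1 (1.15) was at least 2-fold higher, while the cytoplasmic actins Actb (0.32) and Actg1 (0.36), which all cells use, were within 2-fold. On its unsuffixed kept probe set Actb was at −0.10. Actc1, the cardiac alpha-actin, had signals of 18.3 on day 0, 94.3 on day 1 and 70.9 on day 2, a difference of 0.77, or 1.29 with the constant at the 20th percentile. Its day 0 signal was below the constant.

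Among 8 kept genes of myosin II and its control, 2 were at least 2-fold higher, and 1 of them was Myh10, the gene of the heavy chain of non-muscle myosin IIB, by 1.07 (signals of 2401, 3203 and 5116 at day 0, day 1 and day 2). Myh10 was at 0.93 with equal medians of ribosomal protein genes. Myh9 (0.55) and Rock1 (0.71) were within 2-fold on their brightest probe sets. The 5 kept probe sets of Myh9 ran from 0.55 to 1.24, and the 5 of Rock1 from −0.12 to 0.71. Mylk, the myosin light chain kinase gene, was below the constant on average.

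Srf and its partner genes were within 2-fold, apart from Elk3. Srf had signals of 462 on day 0, 560.4 on day 1 and 569 on day 2, a difference of 0.27. The coactivator genes Mrtfa (0.29) and Mrtfb (0.82) and the partner gene Elk4 (0.41) were within 2-fold, and Myocd was below the constant on average. The 1 regulator past 2-fold was the repressor gene Elk3, lower by −1.18, although the mean over its 4 kept probe sets was −0.67 and the weakest gave −0.20. With a constant 2 times as large Elk3 was at −0.94.

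Of 15 kept SRF and MRTF target genes outside the set, 4 were at least 2-fold higher: Zyx (1.84), the gene of the adhesion protein zyxin, Fhl1 (1.75), the LIM protein gene Csrp1 (1.71) and Ccn1 (1.69), the gene of a secreted matrix protein. Csrp2 (−1.65) was lower by more than 2-fold, with a median of 0.82 for the list. Fhl1 made its step by day 1 (1.72, then 0.03), whereas Csrp1 (0.17, then 1.53) and Ccn1 (0.17, then 1.52) made theirs after day 1. The immediate early targets Egr1 (−0.49) and Fos (0.98) and the target Vcl (0.63), the gene of vinculin, were within 2-fold. Other kept probe sets gave 0.65 for Zyx, 0.56 for Fhl1 and 0.75 for Ccn1. Among 22 other kept actin-binding genes only Gsn, the gene of the filament-severing protein gelsolin, was at least 2-fold higher (1.65, and 0.56 for its lowest probe set). Cfl2 (0.95), a cofilin gene, and Pfn2 (0.94), a profilin gene, followed, and the lowest kept probe set of Cfl2 gave −0.03. With the constant at the 20th percentile 3 of the 22 were at least 2-fold higher, Gsn with Pfn2 (1.01) and Lcp1 (1.02). Fscn1 (−0.56), the gene of the bundling protein fascin, was the lowest, and the median was 0.36. The lists share 1 gene, Myh9, which is both a myosin II gene and an SRF target.

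**Figure D4:**
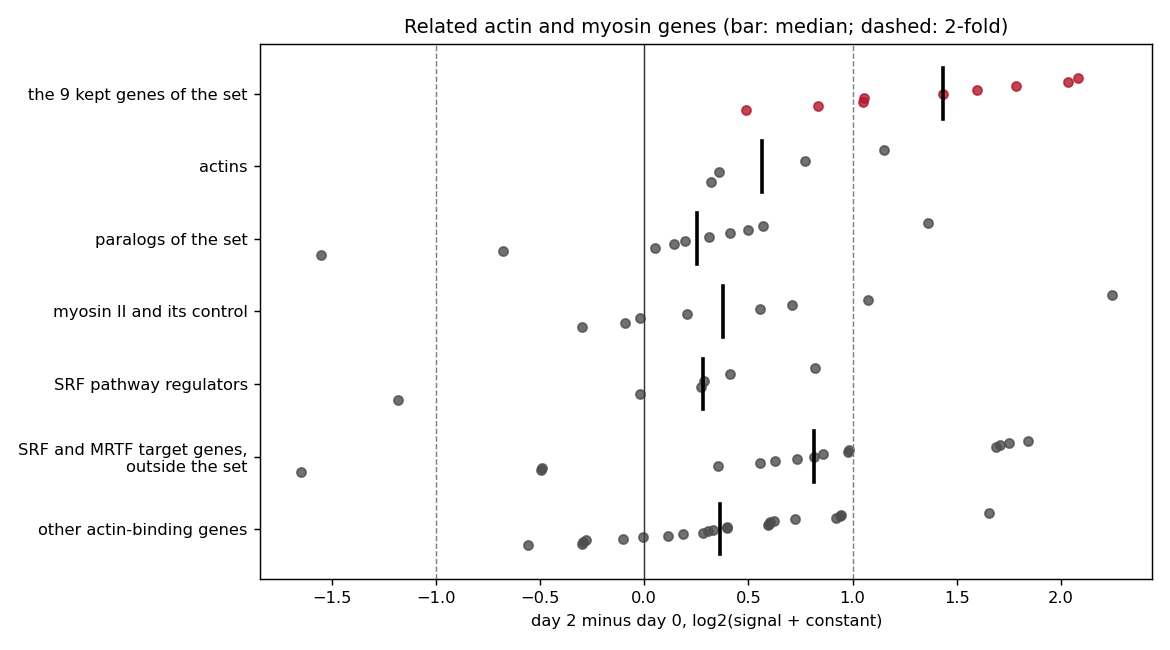
Difference in log2(signal + constant) of day 2 against day 0 (horizontal axis) for the 9 kept genes of the set (red) and for the kept genes of the 6 related lists (grey), 1 point per gene, with a bar at each median and dashed lines at 2-fold. The median of the set is 1.43, and those of the lists run from 0.25 for the paralogs to 0.82 for the SRF and MRTF targets.

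The genes outside the set with profiles most like it were found by distance to its median profile, which was 0.24 at day 1 and 1.43 at day 2 against day 0. The 5 nearest of 12708 genes were 4732419C18Rik (0.18 and 1.46), Abhd5 (0.29 and 1.38), H2-D1 (0.33 and 1.42), Rlim (0.33 and 1.36) and Cd99 (0.33 and 1.37). The signals of 4732419C18Rik were 38.6 on day 0, 51.5 on day 1 and 203.9 on day 2, so it was kept through day 2 alone, and its day 1 value compares signals below the constant. H2-D1 and Cd99 were read from probe sets that end in _x_at, so their probes may cross-hybridise. The distances of 0.06 to 0.11 rest on 3 arrays, and 63 genes lay within 0.25, which is under the pooled SD.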

How the data were processed

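Total RNA of conditional Pou5f1 knockout mouse ES cells was measured on 3 arrays, 1 for each of day 0, day 1 and day 2. The authors deposited 1 linear intensity per probe set, made with MAS5 per the submitters' processing notes, which name no version. The 2% trimmed mean is 498 for all arrays. The day 2 column also holds 64 control probe sets, which were left out, and it is written without trailing zeros, unlike the other columns. Whether it was exported apart from them is not stated. Samples were grouped by the day in their labels.

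Signals were scaled to a common trimmed mean, which changed them by a negligible amount. The constant of 55.9 was added before log2, and probe sets with a mean signal under it were not kept. This left 26925 of 45037 probe sets and 12717 genes. The annotation names 1 gene for 34945 probe sets, several for 932 and none for 9160. No test was possible with 1 array per day, and the number of arrays limits the precision. All 10 member genes are named. From each related list the 3 kept genes with the largest difference and those past 2-fold are named, except for 1 result of the myosin II list that is not reported here. Further listed genes are named for comparison and were chosen after their values were seen. The members and lists were chosen with earlier results of these data known. Scripts used Python 3.11.15 with pandas 2.3.3 and recovered known large changes of bright genes in simulated arrays. This check does not cover changes near 2-fold or dim probe sets. The alternatives concerned the constant, the filter, the scaling and the choice of probe set.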

Additional observations from a re-analysis of the deposited data

How the results depend on the processing

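The 10 alternatives were the constant at the 20th percentile or 2 times as large, no filter or one at the 60th percentile, values as deposited, equal medians, quantile normalisation, equal medians of ribosomal protein genes, the mean over kept probe sets, and leaving out suffixed probe sets (_x_at, _s_at, _a_at). The last left Acta2, and outside the set Acta1, Tagln2, Csrp1 and Csrp2, without a value. For day 2 the count of member genes at least 2-fold higher ran from 5 to 7 against day 0. Against day 1 it ran from 4 to 6, and the medians stayed within the pooled SD under all 10. The count of genes with the larger later step stayed within 1.5 times. Its recomputation was added after seeing the data, and the recomputed results of the related lists were likewise not planned. The single gene at least 2-fold higher at day 1, Cald1, became 0 genes with equal medians (Cald1 at 0.92), with equal medians of ribosomal protein genes (0.93), with the mean over probe sets (0.89) and without suffixed probe sets (0.93). Of 267 member differences recomputed, 0 past 2-fold changed sign, 12 crossed 2-fold, and 6 moved by the pooled SD or more, of which 4 were of Tpm2 and 2 of Cald1. Without suffixed probe sets Tpm2 on day 2 was at 0.21 relative to day 0 and at −0.14 relative to day 1. The median of all genes shifted by −0.13 at day 1 with equal medians, and by −0.12 on both later days against day 0 with equal medians of ribosomal protein genes. The medians of the 6 related lists kept their sign in all 60 recomputed values, the lowest being 0.12. With the constant at the 20th percentile the genes at least 2-fold higher were 7 SRF and MRTF targets in place of 4, 2 actins in place of 1 and 3 other actin-binding genes in place of 1. Without suffixed probe sets they were 2 targets, 0 actins and 0 paralogs in place of 4, 1 and 1, and with equal medians of ribosomal protein genes 1 gene of the myosin II list in place of 2. No paired analysis was possible because each day has 1 array. The constant of 55.9 is a percentile and not a measured detection limit. Whether signals under it can be told from background was not examined, so they are uncertain.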
